A study of Mus musculus with 8 samples.

Results

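The genes described here are 10 transcription factors of forebrain patterning and cortical neuron fate, Foxp1, Foxp2, Tbr1, Fezf2, Bcl11b, Emx1, Emx2, Pax6, Lhx2 and Cux2. They are a list of known regulators, taken by symbol from a table of 37310 genes by a rule that uses no measured value, although the list was drawn up with earlier results of these data known. All 10 had enough reads to be tested, among 17913 genes tested. Hippocampal RNA was sequenced from 4 Nr2f1 knockout heterozygotes and 4 wild-type (WT) mice, each library from its own animal. All 8 were B6.129 F1-hybrid mice, labelled male and 3 months old, with no treatment listed. The labels name the knockout only as a heterozygous Nr2f1 allele, so how the allele was made is not stated here.

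In the embryo, Nr2f1 (COUP-TFI) is a nuclear receptor expressed in a gradient across the cortical sheet, and it sets the position of cortical areas together with Emx2 and Pax6, whose gradients run against each other. Lhx2 gives the neuroepithelium its cortical identity, and Emx1 marks the dorsal lineage that makes pyramidal neurons. Once neurons are born, Fezf2 and its downstream factor Bcl11b (Ctip2) direct deep-layer neurons that project out of the cortex, Tbr1 directs corticothalamic neurons and represses Fezf2 and Bcl11b, and Cux2 marks upper-layer neurons. Foxp1 and Foxp2 are forkhead repressors found together in striatal neurons, and Foxp2 is otherwise strong in thalamus and in cortical layer 6 and low in hippocampus. In the adult, Bcl11b stays on in CA1 and dentate granule neurons, and Pax6 in dentate progenitors and some glia.

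Facts of the whole series that bear on these genes are as follows. Libraries held 58717305 to 88831603 gene counts in heterozygotes and 76154175 to 90043971 in WT. Nr2f1 itself (ENSMUSG00000069171.7, chromosome 13) was at 32.4, 31.0, 33.5 and 28.5 CPM (reads scaled to a TMM-normalised library size of 1000000) in heterozygote libraries 1 to 4, against 53.4, 49.5, 54.1 and 51.6 CPM in WT libraries 1 to 4. The genotypes did not overlap, and heterozygotes were at 60.1% of the WT level (edgeR adjusted p = 7.32e-05). Xist was at 463.2 to 547.5 CPM in heterozygotes and at 502.1 to 601.4 CPM in WT, and the 14 Y-linked genes of the table held at most 1 count in a library, so all 8 libraries went against the male label. The read ratio of spike-in ERCC-00130 to ERCC-00002 was 1.204 to 1.281 in libraries 1 and 3 of each genotype and 0.165 to 0.186 in libraries 2 and 4, so these were taken as the 2 spike-in mixes and values are also given within each. The summed level of 12 choroid plexus markers was 4161 to 4696 CPM in heterozygotes and 85.8 to 2143 CPM in WT. For 6 markers of CA1, a hippocampal field, the sum was 1019 to 1154 CPM in heterozygotes and 1217 to 1258 CPM in WT. In bulk tissue, fewer cells of a type and less RNA per cell cannot be told apart.

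Of the 10 factors, Foxp2 was the only 1 to pass the test, and it was higher in heterozygotes. Across all genes, 2.99% passed (535 of 17913, edgeR adjusted p under 0.05), 469 higher (2.62%) and 66 lower (0.368%), and a single gene of 10 is not read as a result about the set. An unadjusted p under 0.05 was reached by 2 of the 10, Foxp2 and Tbr1, and by 17.2% of all genes. Scaling to the spike-ins instead of TMM gave 1368 higher and 19 lower genes. The median log2 fold change of heterozygotes over WT was -0.13 over the 10 factors and -0.0056 over all genes tested. Below 0 were 7 of the 10 factors, with Tbr1 the lowest, and above 0 were Foxp2, Pax6 and Emx2. The genotypes did not overlap for 1 of the 10, again Foxp2, against 10.6% of all genes (6.99% with heterozygotes higher and 3.59% with heterozygotes lower).

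**Figure D1:**
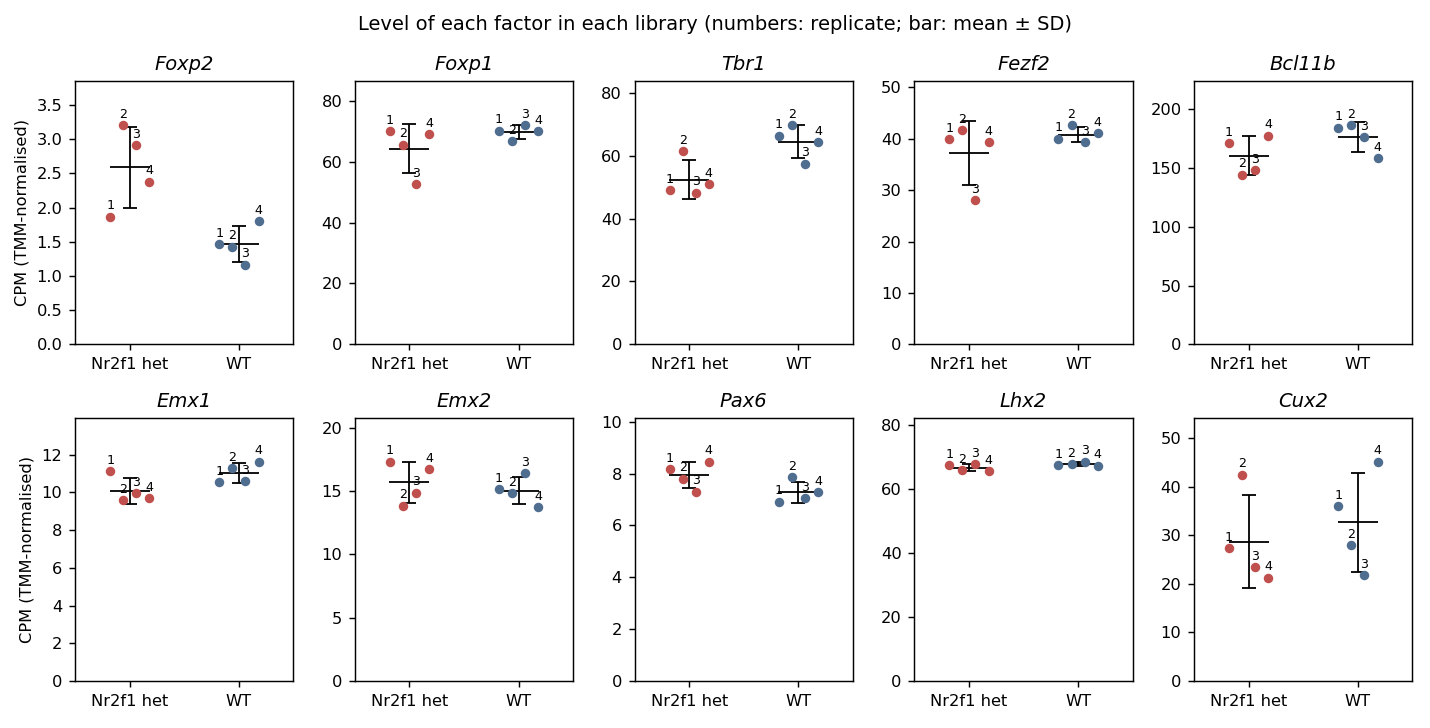
Level of each of the 10 factors (CPM, TMM-normalised, axes from 0) in the 4 Nr2f1 heterozygote and 4 WT libraries; numbers are replicates and black bars the mean ± SD. Foxp2 is the panel in which the genotypes do not overlap, Lhx2 is nearly flat, and Cux2 spreads over 21.3 to 42.5 CPM in heterozygotes and 21.7 to 45.2 CPM in WT.

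The 10 factors differed far more from each other than between genotypes. Levels per length are CPM per kilobase of all annotated exons of the gene, and they are approximate because the lengths come from another genome build than the counts. Bcl11b was highest, at 19.8 ± 2.05 CPM per kilobase in heterozygotes and 21.8 ± 1.60 in WT (SD, n = 4 each). Lhx2 was next in all 8 libraries, at 15.1 ± 0.240 CPM per kilobase in heterozygotes and 15.4 ± 0.124 in WT (SD, n = 4 each), and its range did not meet that of Bcl11b. Fezf2 came after Lhx2 and Tbr1 after Fezf2 in every library, but the ranges of Fezf2 and Tbr1 overlapped, with Fezf2 as low as 9.20 and Tbr1 as high as 12.7 CPM per kilobase. Emx2, Foxp1 and Emx1 lay together at means of 5.23, 4.69 and 4.62 CPM per kilobase in heterozygotes and of 5.02, 5.08 and 5.04 in WT, and their order changed from library to library. Cux2 followed at 2.84 ± 0.951 CPM per kilobase in heterozygotes and 3.25 ± 1.01 in WT (SD, n = 4 each). Pax6 was at 0.678 ± 0.0429 in heterozygotes and 0.622 ± 0.0356 in WT, and Foxp2 was last at 0.159 ± 0.0362 in heterozygotes and 0.0897 ± 0.0160 in WT, all in CPM per kilobase (SD, n = 4 each).

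**Figure D2:**
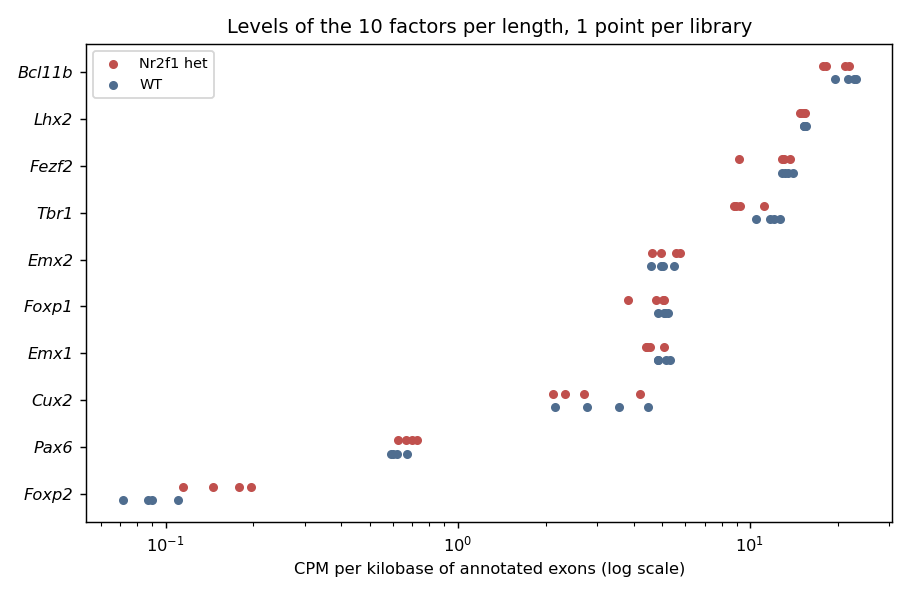
CPM per kilobase of annotated exons (log axis) for the 10 factors, 1 point per library, Nr2f1 heterozygotes above WT in each row. The order runs from Bcl11b, at 19.8 in heterozygotes and 21.8 in WT on average, down to Foxp2, at 0.159 in heterozygotes and 0.0897 in WT, and the genotypes share that order except among Emx2, Foxp1 and Emx1.

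Foxp2 (ENSMUSG00000029563.10, chromosome 6), which encodes a forkhead repressor tied to speech and vocal learning, was at 1.87, 3.21, 2.91 and 2.38 CPM in heterozygote libraries 1 to 4, against 1.47, 1.43, 1.17 and 1.80 CPM in WT libraries 1 to 4. Every heterozygote library lay above every WT library, but the lowest of them, library 1 at 1.87 CPM, stood close to WT library 4 at 1.80 CPM. These levels rest on 110, 256, 263 and 193 reads in heterozygotes and on 110, 124, 93 and 162 reads in WT. The log2 fold change was 0.84 ± 0.181 (SE), or 1.79-fold (edgeR adjusted p = 0.0288; 95% interval 0.45 to 1.23). It was 0.92 ± 0.264 within libraries 1 and 3 and 0.79 ± 0.217 within libraries 2 and 4 (SE; edgeR adjusted p = 0.134 and 0.264). Foxp2 stayed higher in heterozygotes under every alternative run, but it lost the call when heterozygote library 2, 3 or 4 or WT library 1, 2 or 3 was left out (edgeR adjusted p = 0.0675, 0.0823, 0.0510, 0.0826, 0.0648 and 0.0937), and kept it without heterozygote library 1 or WT library 4 (0.0219 and 0.0158). Over all alternatives its edgeR, limma-voom or DESeq2 adjusted p ran from 0.000365 to 0.883.

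Fold changes of markers of striatum and thalamus, where Foxp2 is strong, were above 1 for 11 of 11 striatal and 7 of 8 tested thalamic genes, against 8573 of all 17913 genes, but most of these markers did not pass. The summed level of 11 striatal markers was 220, 240, 305 and 338 CPM in heterozygote libraries 1 to 4, against 212, 219, 204 and 216 CPM in WT libraries 1 to 4. Their median log2 fold change was 0.79. Of the 11, 2 passed in edgeR, both higher (2.62% of all genes; 3 by limma-voom and 6 by the DESeq2 Wald test): Six3, a striatal homeobox gene, at 3.16 ± 1.44 CPM in heterozygotes and 0.476 ± 0.245 in WT (SD, n = 4 each; edgeR adjusted p = 0.0193), and Ppp1r1b, the DARPP-32 gene, at 62.8 ± 11.3 CPM in heterozygotes and 39.3 ± 4.12 in WT (SD, n = 4 each; edgeR adjusted p = 0.0471). The dopamine receptor gene Drd1 and the phosphodiesterase gene Pde10a, markers of the same striatal neurons named here after their values were seen, had log2 fold changes of 0.15 and 0.0098 and did not pass (edgeR adjusted p = 0.522 and 0.968). The summed level of 9 thalamic markers was 126, 164, 181 and 137 CPM in heterozygotes, against 108, 133, 109 and 124 CPM in WT. Prkcd was the thalamic marker that passed, of 8 tested, and it was higher (log2 fold change 0.47, edgeR adjusted p = 0.0292). Zic1 was higher without passing (1.30, edgeR adjusted p = 0.0501), and Slc17a6 was the tested marker below 0 (-0.15, edgeR adjusted p = 0.868). Gbx2, named like these with its values known, was too low to be tested. It was at 0.017, 0.075, 0.11 and 0.025 CPM in heterozygotes, against 0.013, 0.023, 0.013 and 0.011 CPM in WT. Heterozygote library 4 was highest in the striatal sum and second lowest of the 4 heterozygotes in Foxp2, while libraries 2 and 3 were highest in both Foxp2 and the thalamic sum. The summed level of 8 markers of cortical layers 6 and 6b, also a site of Foxp2, was 112 to 135 CPM in heterozygotes and 86.9 to 111 CPM in WT, but 2 of the 8 had a fold change above 1 and their median log2 fold change was -0.071. Sulf1 made up much of that sum, at 47.1 ± 3.32 CPM in heterozygotes and 15.2 ± 9.66 CPM in WT (SD, n = 4 each), while Ntsr1, which defines layer 6 and is also named with its values known, had a log2 fold change of -0.093 (edgeR adjusted p = 0.912). With the mean striatal marker level as a covariate, 68.9% of whose variance lay between the genotypes, Foxp2 had a log2 fold change of 0.61 ± 0.338 (SE, edgeR adjusted p = 0.883). With the choroid plexus level as a covariate it was 0.65 ± 0.289 (SE, edgeR adjusted p = 0.743). With the striatal covariate 0 of all genes passed, and Nr2f1 itself lost its call (log2 fold change -0.64, edgeR adjusted p = 0.241). With the choroid plexus covariate 1 gene passed, Nr2f1 (edgeR adjusted p = 0.0196). Losing the call in these fits was therefore not particular to Foxp2. The part of other regions in the Foxp2 difference was not tested.

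The genes whose profile over the 8 libraries lay closest to that of Foxp2 were Zic2, Arhgef5 and Spata6, at root mean square differences of 0.135, 0.150 and 0.170 in centred log2 CPM, out of 13203 genes searched. Zic2, a zinc finger gene of the midline and the septum, was at 13.0, 16.6, 18.3 and 14.9 CPM in heterozygote libraries 1 to 4, against 7.80, 9.31, 7.09 and 10.2 CPM in WT libraries 1 to 4. As with Foxp2, heterozygote libraries 2 and 3 were highest and WT library 3 was lowest.

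Foxp1 (ENSMUSG00000030067.9, chromosome 6), the forkhead paralog that CA1 and striatal neurons express, did not pass. It was at 70.1, 65.7, 52.7 and 69.2 CPM in heterozygote libraries 1 to 4, against 70.3, 66.8, 72.2 and 70.1 CPM in WT libraries 1 to 4. Heterozygote library 3 stood below the other 7 libraries, which ran from 65.7 to 72.2 CPM. In edgeR the log2 fold change was -0.12 ± 0.0799 (SE; edgeR adjusted p = 0.503; 95% interval -0.30 to 0.060), and without heterozygote library 3 it was -0.032 (edgeR adjusted p = 0.780). Foxp1 shares 300 exon bases with the same-strand gene Gm20696, so reads there could be lost or split by the counting.

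Counted against each other within a library, which needs no scaling, Foxp2 reads were 2.67%, 4.89%, 5.52% and 3.44% of Foxp1 reads in heterozygote libraries 1 to 4, against 2.09%, 2.14%, 1.61% and 2.57% in WT libraries 1 to 4. The genotypes did not overlap, with heterozygote library 1 next to WT library 4. This ratio reuses the Foxp2 reads tested above, so its split is not a separate observation. Its highest value, in heterozygote library 3, also has the low Foxp1 of that library as denominator. The log2 ratio was higher in heterozygotes by 0.93 (exact two-sided permutation test p = 0.0286, the smallest that 4 against 4 allows). This ratio was examined along with Emx2 over Emx1 and Tbr1 over Fezf2, all 3 chosen after the values were seen, and adjusted over the 3 its exact p was 0.0857.

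**Figure D3:**
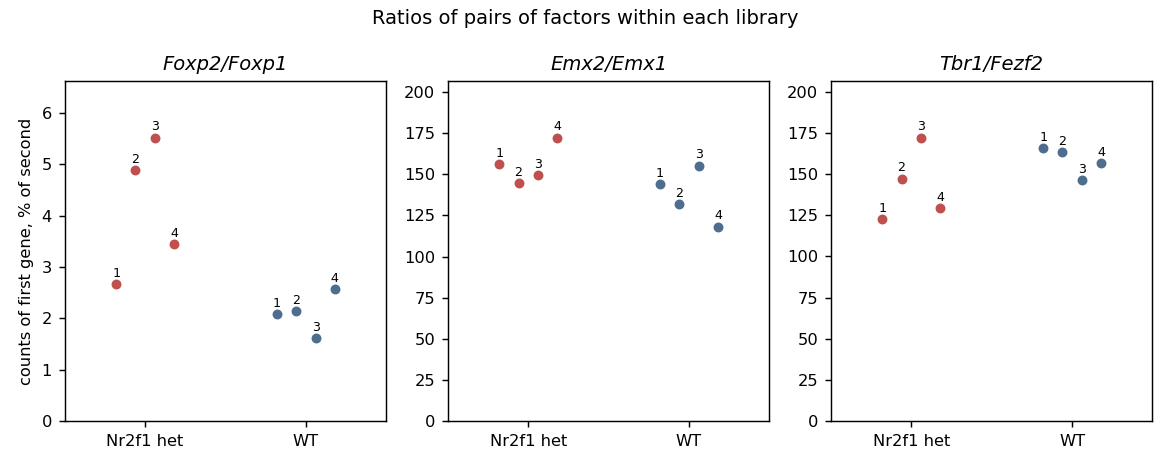
Reads of the first gene as a percentage of reads of the second in each library (axes from 0, numbers are replicates), Nr2f1 heterozygotes left and WT right. Foxp2 over Foxp1 is 2.67% to 5.52% in heterozygotes and 1.61% to 2.57% in WT, and the other 2 ratios overlap between genotypes.

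Among factors of deep-layer fate, Tbr1, a T-box factor of corticothalamic and pyramidal neurons, averaged lower in heterozygotes without passing. Tbr1 (ENSMUSG00000035033.9, chromosome 2) was at 49.0, 61.4, 48.3 and 50.9 CPM in heterozygote libraries 1 to 4, against 66.4, 69.8, 57.5 and 64.3 CPM in WT libraries 1 to 4. Heterozygote library 2 lay above WT library 3, and the other heterozygote libraries lay below all WT libraries. Its log2 fold change was -0.30 ± 0.0837 (SE), or 0.813 of WT (edgeR adjusted p = 0.0947; 95% interval -0.49 to -0.11). Within libraries 1 and 3 it was -0.34 ± 0.0745 and within libraries 2 and 4 -0.26 ± 0.0954 (SE; edgeR adjusted p = 0.0529 and 0.527). It passed as lower in 4 of 24 alternatives, among them with the spike-in mix as a covariate (edgeR adjusted p = 0.0330), without heterozygote library 2 (edgeR adjusted p = 0.0126) and by the DESeq2 Wald test (adjusted p = 0.00809). It lay below 0 under every alternative run, with an adjusted p from 0.00809 to 0.919. The summed CA1 markers were also lower in all 4 heterozygotes than in all 4 WT libraries, and the part of CA1 content in the Tbr1 level was not tested.

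Fezf2 (ENSMUSG00000021743.5, chromosome 14), the zinc finger gene that starts the subcerebral program in layer 5, was at 40.0, 41.7, 28.0 and 39.3 CPM in heterozygote libraries 1 to 4, against 40.0, 42.7, 39.3 and 41.0 CPM in WT libraries 1 to 4. As for Foxp1, heterozygote library 3 was low and the other 7 libraries lay within 39.3 to 42.7 CPM. The fitted log2 fold change was -0.13 ± 0.113 (SE, edgeR adjusted p = 0.610), and without heterozygote library 3 it was -0.016 ± 0.0426 (SE, edgeR adjusted p = 0.911). That library also had the lowest summed level of the CA1 markers, 1019 CPM, and its striatal sum of 305 CPM was the second highest. Its thalamic sum of 181 CPM and its upper-layer and layer 5 sum of 534 CPM were the highest. Heterozygote library 4, with the highest striatal sum at 338 CPM, had Foxp1 at 69.2 CPM and Fezf2 at 39.3 CPM. The part of tissue content in the low Foxp1 and Fezf2 of heterozygote library 3 was not tested. Tbr1 reads were 123% to 172% of Fezf2 reads in heterozygotes and 146% to 166% in WT (exact two-sided permutation test p = 0.257).

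Bcl11b (ENSMUSG00000048251.9, chromosome 12), the most abundant of the 10, was at 172, 144, 148 and 178 CPM in heterozygote libraries 1 to 4, against 185, 187, 176 and 158 CPM in WT libraries 1 to 4. WT library 4 fell among the heterozygotes, and the log2 fold change of -0.14 ± 0.0769 (SE) did not pass (edgeR adjusted p = 0.409; 95% interval -0.31 to 0.035). Bcl11b also marks striatal neurons, whose summed markers are given above. The summed level of 6 dentate granule markers was 282, 251, 261 and 298 CPM in heterozygote libraries 1 to 4, against 302, 298, 288 and 239 CPM in WT libraries 1 to 4. Bcl11b and the dentate sum were both higher in heterozygote libraries 1 and 4 than in 2 and 3 and lowest in WT library 4 among WT. The part of dentate or striatal content in the Bcl11b level was not tested.

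Cux2 (ENSMUSG00000042589.9, chromosome 5), a homeobox gene of upper-layer neurons, varied most within a genotype. It was at 27.4, 42.5, 23.4 and 21.3 CPM in heterozygote libraries 1 to 4, against 36.0, 27.9, 21.7 and 45.2 CPM in WT libraries 1 to 4. Heterozygote library 2 and WT libraries 1 and 4 were high, and the groups overlapped nearly completely. The log2 fold change was -0.19 ± 0.314 (SE; edgeR adjusted p = 0.817; 95% interval -0.95 to 0.57), and leaving out single libraries moved it between -0.45 (without heterozygote library 2) and 0.014 (without WT library 4). Its within-genotype SD on the log2 scale, 0.448, was above that of 98.3% of genes of at least 1 CPM. Among the genes closest to Cux2 in profile, searched for after its values were seen, were Gucy2g, Ankrd34c, Sowahb and Fhod3, at root mean square differences of 0.188 to 0.212.

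Tshz2, a zinc finger gene of the cortical fate list also picked out after its values were seen, was high in some of the same libraries as Cux2. It was at 2.11, 7.41, 2.58 and 3.28 CPM in heterozygote libraries 1 to 4, against 4.12, 7.14, 5.18 and 8.77 CPM in WT libraries 1 to 4. As in Cux2, heterozygote library 2 was the highest of its genotype and WT library 4 the highest of its own. Tshz2 did not pass (log2 fold change -0.71 ± 0.434, SE; edgeR adjusted p = 0.478). Markers of the subiculum, which borders the hippocampus, summed to 116, 142, 130 and 133 CPM in heterozygotes, against 134, 143, 130 and 159 CPM in WT, and these too were highest in heterozygote library 2 and WT library 4. The 8 upper-layer and layer 5 markers did not have that order, with sums of 478, 502, 534 and 499.9 CPM in heterozygotes, against 532, 494, 487 and 499.6 CPM in WT. The part of neighbouring cortex in this spread was not tested.

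**Figure D4:**
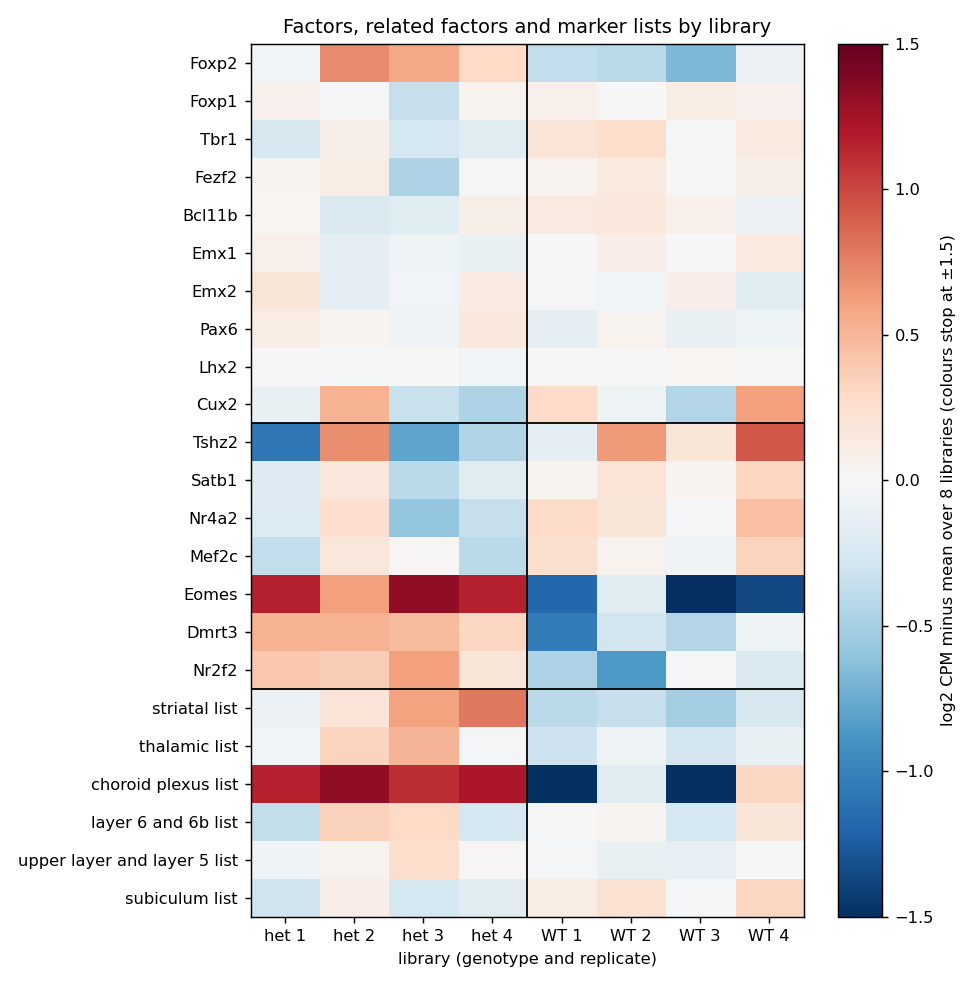
Centred log2 CPM (each gene's mean over all 8 libraries subtracted) for the 10 factors (top), 7 related factors (middle) and the mean of 6 marker lists (bottom), heterozygotes left of WT; colours stop at ±1.5. Foxp2, Eomes, Dmrt3 and Nr2f2 are higher across the heterozygotes. Cux2 and Tshz2 are high in heterozygote library 2 and WT library 4, and the choroid plexus list is lowest in WT libraries 1 and 3.

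None of the area-patterning factors passed the test. Emx2 (ENSMUSG00000043969.3, chromosome 19), the homeobox gene of the caudomedial cortex without which the dentate gyrus fails to form, was at 17.3, 13.9, 14.9 and 16.7 CPM in heterozygote libraries 1 to 4, against 15.2, 14.9, 16.4 and 13.8 CPM in WT libraries 1 to 4. The ranges were nearly the same, and the log2 fold change of 0.057 ± 0.0767 (SE) did not pass (edgeR adjusted p = 0.762; 95% interval -0.11 to 0.22). Emx2os, an RNA read from the opposite strand, shares 264 exon bases with Emx2, and the library kit does not mark strand. Emx2os was at 4.42, 2.87, 2.90 and 3.75 CPM in heterozygotes, against 3.55, 3.57, 3.42 and 3.08 CPM in WT, with heterozygote libraries 1 and 4 the highest of their genotype and WT library 4 the lowest of its own, as for Emx2.

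Emx1 (ENSMUSG00000033726.8, chromosome 6), the paralog used as a marker of the pyramidal neuron lineage, was at 11.1, 9.59, 9.97 and 9.71 CPM in heterozygote libraries 1 to 4, against 10.6, 11.3, 10.6 and 11.6 CPM in WT libraries 1 to 4. Heterozygotes 2, 3 and 4 lay below all WT libraries and heterozygote 1 among them. In edgeR the log2 fold change was -0.13 ± 0.0654 (SE; edgeR adjusted p = 0.324), at -0.0030 within libraries 1 and 3 and -0.25 within libraries 2 and 4 (edgeR adjusted p = 0.993 and 0.409). Emx2 reads were 145% to 172% of Emx1 reads in heterozygotes and 118% to 155% in WT (exact two-sided permutation test p = 0.114).

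Pax6 (ENSMUSG00000027168.12, chromosome 2), the paired-box gene whose embryonic gradient opposes that of Emx2, was at 8.17, 7.80, 7.30 and 8.46 CPM in heterozygote libraries 1 to 4, against 6.92, 7.86, 7.04 and 7.27 CPM in WT libraries 1 to 4. Heterozygotes 1 and 4 lay above all WT libraries and the other heterozygotes among them. Its log2 fold change was 0.12 ± 0.0734 (SE; edgeR adjusted p = 0.442; 95% interval -0.039 to 0.28).

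Lhx2 (ENSMUSG00000000247.4, chromosome 2), the LIM-homeobox selector of the cortex, hardly varied. It was at 67.3, 65.8, 67.6 and 65.4 CPM in heterozygote libraries 1 to 4, against 67.5, 67.6, 68.5 and 67.2 CPM in WT libraries 1 to 4. All 8 values lay within 65.4 to 68.5 CPM, and the within-genotype SD of 0.0181 on the log2 scale was below that of all but 0.450% of genes of at least 1 CPM. The fitted log2 fold change was -0.025 ± 0.0302 (SE; edgeR adjusted p = 0.732; 95% interval -0.090 to 0.041), and 0.073 with spike-in scaling, which moved the median of all genes to 0.091.

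**Figure D5:**
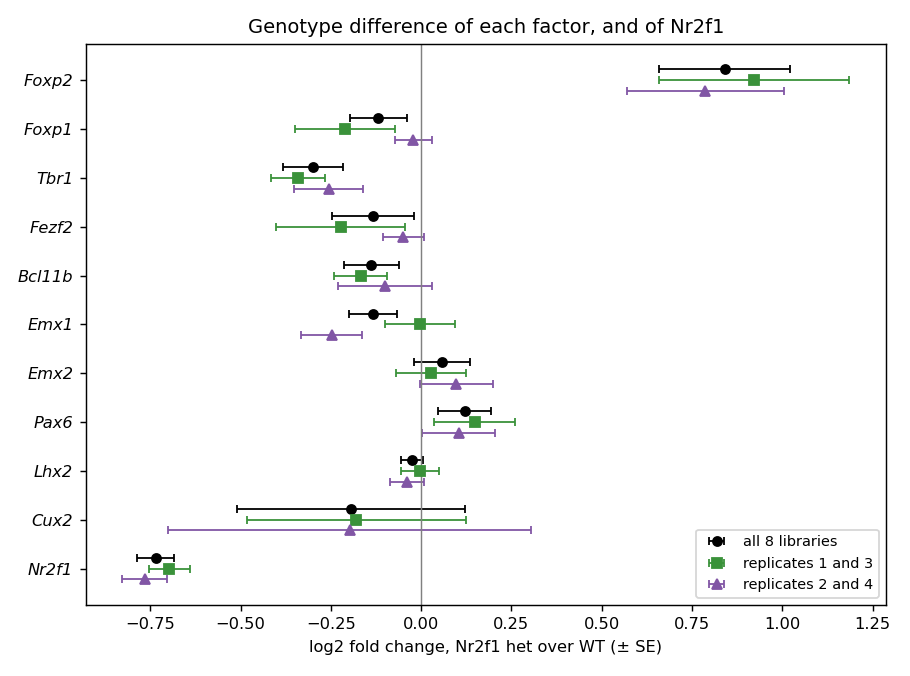
Log2 fold change of Nr2f1 heterozygotes over WT (± SE) for the 10 factors and Nr2f1, from all 8 libraries (circles), replicates 1 and 3 (squares) and replicates 2 and 4 (triangles), the last 2 being the 2 spike-in mixes. Foxp2 lies near 0.84 and Nr2f1 near -0.73 in all 3 fits, Tbr1 between -0.34 and -0.26, and Emx1 at -0.0030 and -0.25 in the mixes.

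Other factors of the same developmental programs were read from a list of 42, of which 39 were tested. Of these, 2 passed, both higher in heterozygotes (background 2.62% higher), 3 by limma-voom and 6 by the DESeq2 Wald test, and the list's median log2 fold change was -0.054, against -0.0056 over all genes. Eomes (Tbr2), the T-box gene of intermediate progenitors and of Cajal-Retzius precursors, was at 1.55, 1.03, 1.75 and 1.54 CPM in heterozygote libraries 1 to 4, against 0.227, 0.553, 0.150 and 0.189 CPM in WT libraries 1 to 4. The genotypes did not overlap (log2 fold change 2.37 ± 0.317, SE; edgeR adjusted p = 0.00436). Dmrt3, a doublesex-related gene of the medial pallium, was at 1.27, 1.27, 1.23 and 1.09 CPM in heterozygotes, against 0.360, 0.691, 0.602 and 0.812 CPM in WT (log2 fold change 0.95 ± 0.208, SE; edgeR adjusted p = 0.0314). Both stayed below 2 CPM in all libraries, and in both every WT library lay below every heterozygote. Of the 39 tested, the genotypes did not overlap for 4 with heterozygotes higher, these and Sp8 and Nr2f2 (6.99% of all genes). They did not overlap for 2 with heterozygotes lower, Bcl11a and Hivep2 (3.59% of all genes). Nr2f2, the paralog of Nr2f1, had a log2 fold change of 0.77 ± 0.182 (SE, edgeR adjusted p = 0.0778).

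None of the cofactors and reported targets on 2 further lists passed in edgeR. Over all genes 2.99% passed and 17.2% had an unadjusted p under 0.05, so a count of 0 in lists this short is not read as a result. Of 29 genes for cofactors (the Ldb and Lmo proteins that work with Lhx2, Groucho and Ctbp corepressors, the NuRD and BAF chromatin complexes, and Cask, which binds Tbr1), 0 passed by edgeR, limma-voom or the DESeq2 Wald test and 2 had an unadjusted edgeR p under 0.05. The lowest p among them was that of Actl6b, a neuronal BAF subunit, with a log2 fold change of -0.094 ± 0.0401 (SE, edgeR adjusted p = 0.250). Of 11 tested genes reported as targets, among them Reln and Auts2 of Tbr1, Cntnap2 of Foxp2 and Slc17a7 of Fezf2, 0 passed by edgeR or limma-voom, 1 by the DESeq2 Wald test, and 2 had an unadjusted edgeR p under 0.05. The lowest p was that of Vldlr, the reelin receptor gene, at 0.10 ± 0.0315 (log2 fold change, SE; edgeR adjusted p = 0.108). Median log2 fold changes were -0.010 for cofactors and -0.074 for targets. Among antisense partners, Pax6os1 had the lower p and lay at 0.238 CPM or below in all libraries (edgeR adjusted p = 0.299).

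Promoters were read from RefSeq (GRCm38.p6) as windows from 250 bases before to 50 after a transcription start, and 14 windows matched 9 of the 10 factors. The factor without a window was Foxp2, so its promoter was not searched. The nuclear receptor half-site AGGTCA, sought on both strands, was in 0 of these 14 windows and in 16.3% of all 32851 windows. Its direct repeat with a spacer of 1 base (the DR1 element), which includes the half-site, was in 0 of the 14 and in 0.0396% of all windows. The absence says only that these letters are not in these windows.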

How the data were processed

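Amplified cDNA, primed at poly(A) and at random, from 10 ng of hippocampal RNA was sequenced for 4 Nr2f1 heterozygotes and 4 WT mice, per the labels' protocols. The authors deposited raw read counts per Ensembl gene. The submitters' processing notes name FastQC, STAR 2.4.2a, HTSeq and DESeq2 and the builds NCBIM37 and mm9; which annotation and strand setting were used is not given in the sources used here. Library sizes and tests left out the 92 spike-in rows. Symbols, exon lengths and overlaps came from GENCODE M21 (GRCm38) by gene ID, which named 32620 of 37310 genes. Within each genotype, library pairs differed beyond sampling noise (chi-square per degree of freedom 7.42 to 25.0), so none was a duplicate.

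Counts were TMM-normalised and filtered with filterByExpr (minimum count 10, total 15). Genotypes were compared with the robust quasi-likelihood F test of edgeR 4.0.16 under R 4.3.3. It is two-sided, and p-values were adjusted by the Benjamini-Hochberg method over all 17913 genes tested, with a threshold of 0.05. The SE is the log2 fold change over the root of F. Log2 CPM used an offset of 0.1. A count of 0 allows up to 3 counts, 0.0332 to 0.0510 CPM by library, for counting error only. On simulated counts of 17913 genes with these depths, the test called 42.6% of genes given a log2 change of 0.3, 68.2% at 0.6 and 80.3% at 1, and 5.93% of its calls were unchanged genes. Each gene was drawn independently, without the variation in tissue content that real libraries share. These shares therefore hold for the simulated setting only.

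The 10 factors and all lists were chosen with earlier results of these data known, so no p is adjusted over them alone. Named are all 10 factors, Nr2f1, genes of the related lists that passed or else had the lowest p, and for Foxp2 the 3 genes closest in profile. Reported targets named as examples, single genes of the marker lists and the genes closest to Cux2 were picked later, with values known. So were Emx2os, Tshz2 and the related factors named because their genotypes did not overlap. Alternatives were DESeq2 1.42.0 size factors, upper quartile and spike-in scaling (total spike-in counts with the mix as a covariate), the DESeq2 Wald test, limma-voom (limma 3.58.1), a non-robust fit, 2 other filters, libraries left out, each mix alone, and the mix, replicate number, run of animal numbers, choroid plexus or striatal level as a covariate.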

Additional observations from a re-analysis of the deposited data

How the results depend on the processing

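Over 24 alternatives for each of the 10 factors, 218 of 240 comparisons kept both direction and side of the threshold. Foxp2 kept its direction in all 24 and its call in 11, and Tbr1, not called, kept its direction in all 24 and passed in 4. Signs changed for Foxp1 (0.0074), Fezf2 (0.038) and Cux2 (0.087) with the striatal level as a covariate, for Cux2 without WT library 4 (0.014, where leaving out each library gave -0.45 to 0.014) and for Lhx2 with spike-in scaling (0.073), none of them called in either setting; the cause was not tested. The number of factors past the threshold, 1 in the main analysis, was 2 with the spike-in mix as a covariate and 2 by the DESeq2 Wald test (Foxp2 and Tbr1 in both). It was 0 in edgeR with the run of animal numbers, the choroid plexus level or the striatal level as a covariate, within odd-numbered or within even-numbered libraries, and without WT libraries 1 and 3, where 2, 3, 0, 2, 3 and 3 factors in that order had an unadjusted p under 0.05. Leaving out each library gave 0 to 1, and without heterozygote library 2 the 1 was Tbr1. Over all genes, 535 calls became 1387 with spike-in scaling, 1188 by the DESeq2 Wald test, 231 with the run of animal numbers, 78 within even-numbered libraries, 170 without WT libraries 1 and 3, and 171 to 767 leaving out each library. With the choroid plexus level 1 gene passed edgeR and with the striatal level 0 did, with 1181 and 1060 genes at an unadjusted p under 0.05; 58.9% and 68.9% of the variance of these levels lay between the genotypes.

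The labels give both genotypes replicate numbers 1 to 4 and do not say that a number marks shared animals or batches. Deviations of same-numbered libraries from their group means correlated at -0.105 to 0.0357 across genes, and those of differently numbered libraries at -0.154 to 0.159. By this measure same-numbered libraries were no more alike than others. It cannot exclude shared handling, since the spike-in ratio split odd-numbered from even-numbered libraries in both genotypes. With the replicate block, 406 genes and 1 of the 10 factors passed, Tbr1 (log2 fold change -0.30, edgeR adjusted p = 0.0172) in place of Foxp2 (0.83, edgeR adjusted p = 0.0646). Foxp2 rests on 93 to 263 reads a library, the fewest of the 10.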

Other observations

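Marker lists that the text above does not describe were read in the same way, by the number of tested genes past the edgeR threshold over all genes. Of 6 ependymal markers 4 passed (Mia, Dynlrb2, Rsph1 and Ccdc153), all higher in heterozygotes, with a median log2 fold change of 1.34. Of 9 neuroblast and cycling markers 3 passed as higher (Eomes, Cdk1 and Igfbpl1), with a median of 0.27, while Neurod1 and Dcx, which mark the same lineage and are named with their values known, lay at -0.065 and -0.0094 and did not pass. Of 6 Cajal-Retzius markers 2 passed as higher: Trp73 at 9.97, 7.22, 8.33 and 9.26 CPM in heterozygote libraries 1 to 4, against 5.65, 6.57, 5.75 and 6.17 CPM in WT libraries 1 to 4 (edgeR adjusted p = 0.0184), and Calb2 (edgeR adjusted p = 0.0449). Reln, made by Cajal-Retzius cells and also by interneurons and likewise named with its value known, had a log2 fold change of -0.080 (edgeR adjusted p = 0.717). CA1 markers had 2 of 6 lower, Wfs1 and Mpped1 (log2 fold change -0.24 and -0.19; edgeR adjusted p = 0.0362 and 0.0409). The CA1 median was -0.15, and 1 of the 6, Fibcd1, lay above 0 at 0.048 without passing. Dentate granule markers had 1 of 6 lower, Tdo2 (log2 fold change -0.60, edgeR adjusted p = 0.0252), but 3 of the 6 lay above 0 and the median was -0.016. Interneuron markers had 1 of 10 higher, Dlx2 (log2 fold change 0.45, edgeR adjusted p = 0.0153).

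No marker passed in edgeR among 12 choroid plexus, 8 meningeal, 8 astrocyte, 8 layer 6 and 6b, 8 upper-layer and layer 5 and 4 subiculum genes, where 11, 5, 3, 1, 2 and 2 in that order had an unadjusted p under 0.05. In the same order limma-voom called 9, 2, 1, 1, 0 and 0 of them and the DESeq2 Wald test 4, 4, 1, 1, 0 and 1, so the choroid plexus count depends on the tool. Median log2 fold changes of these lists were 1.83, 0.71, 0.013, -0.071, 0.039 and -0.20 in the same order. Passing genes in edgeR made up 2.99% of all genes.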
